A study of Mus musculus with 6 samples.

Results

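The solute carriers are membrane proteins that move nutrients, ions, vitamins and metabolites across the plasma membrane and the membranes of organelles, and their genes are named Slc with a number for the family. The genes described here were chosen by symbol and by level. They are the rows whose symbol starts with Slc and a digit and whose mean over the 6 libraries was at least 2 CPM, which is the deposited count scaled by the column total. The glucose transporter genes Slc2a1 and Slc2a3 and the lactate transporter genes Slc16a1 and Slc16a3 were left out. Of 278 rows with such a symbol 274 remained without these 4, and 163 of them, in 43 families, reached the level, out of 19390 genes in the table. The other 111 lay below it. The level over all 6 libraries chose the genes, but the set was proposed with earlier results of these data known. Near the cut a gene can also reach 2 CPM through the libraries of a single label. Slc27a6, Slc4a10 and Slc4a4 averaged 1.59, 1.81 and 1.67 CPM in WT-labelled libraries, and Slc25a27 averaged 1.89 CPM in KO-labelled ones. Slc15a2 also lay under 2 CPM in every WT-labelled library.

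Messenger RNA was sequenced from γδ T cells, lymphocytes whose antigen receptor is made of a γ and a δ chain, which were sorted by flow cytometry from spleens of 6-week-old mice. Titles divide the libraries into KO and WT, with 3 of each, and the design text gives the genotypes USF3-f/f; CD2-cre and USF3-f/f, which were taken as KO and WT in that order. Floxed Usf3 alleles were thus present under both labels. CD2-cre, in which regulatory sequences of the T cell gene Cd2 drive Cre recombinase, is active in other lymphocytes besides γδ T cells and was present under the KO label alone, so the transgene and the deletion cannot be told apart. The labels do not say whether the libraries of a label came from separate animals or from pools, and p-values measure the spread between these libraries, which may be technical. The series is about what USF3 does in γδ T cells, and the comparison asks which solute carrier genes differ between the labels.

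Families tend to share a substrate. Slc7 light chains pair with the heavy chain of Slc3a2 and bring large or cationic amino acids into T cells, whose uptake rises when they are activated. Most Slc25 proteins are carriers of the mitochondrial inner membrane, and Slc35 proteins carry nucleotide sugars into the Golgi apparatus and endoplasmic reticulum. Slc30 proteins move zinc out of the cytosol, and Slc39 proteins move it in. USF3 is related to the upstream stimulatory factors USF1 and USF2, basic helix-loop-helix leucine zipper proteins that bind the E-box CACGTG.

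Because USF1 and USF2 bind this E-box, the promoter windows of the genes were searched for it. RefSeq windows of 300 bases, 250 before and 50 after the annotated start in the build GRCm38.p6, were matched for 121 of the 163 genes, with 162 windows. The letters CACGTG, which read the same on both strands, stood in a window of 20 of these 121 genes (16.5%), against 11.4% of all tested genes with a window and 8.09% of all genes with a window. They stood in windows of 0 of 12 genes called higher in KO-labelled libraries, of 4 of 19 called lower (21.1%) and of 16 of 90 not called (17.8%), with the call as defined further on. The windows of the 4 lower genes are shown with CACGTG in capitals, followed by that of Slc15a2, the gene with the largest fold, which holds CATGTG on the reverse strand, read as CACATG, also in capitals.
Slc20a1: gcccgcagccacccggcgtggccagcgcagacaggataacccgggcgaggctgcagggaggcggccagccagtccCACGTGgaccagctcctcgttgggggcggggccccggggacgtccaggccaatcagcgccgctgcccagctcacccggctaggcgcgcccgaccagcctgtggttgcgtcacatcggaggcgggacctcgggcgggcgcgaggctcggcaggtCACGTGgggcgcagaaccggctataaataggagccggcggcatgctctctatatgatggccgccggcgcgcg
Slc35a5: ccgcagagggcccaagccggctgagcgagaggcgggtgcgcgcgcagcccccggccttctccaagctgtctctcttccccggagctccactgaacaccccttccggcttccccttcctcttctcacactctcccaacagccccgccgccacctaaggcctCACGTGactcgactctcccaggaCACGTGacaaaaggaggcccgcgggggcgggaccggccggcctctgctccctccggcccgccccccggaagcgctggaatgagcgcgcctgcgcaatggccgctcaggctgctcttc
Slc33a1: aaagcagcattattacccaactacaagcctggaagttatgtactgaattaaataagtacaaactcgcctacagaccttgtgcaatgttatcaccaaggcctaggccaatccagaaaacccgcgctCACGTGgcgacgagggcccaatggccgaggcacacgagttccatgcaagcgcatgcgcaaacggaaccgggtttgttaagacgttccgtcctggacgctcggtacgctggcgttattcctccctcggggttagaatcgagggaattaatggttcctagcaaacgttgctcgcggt
Slc12a7: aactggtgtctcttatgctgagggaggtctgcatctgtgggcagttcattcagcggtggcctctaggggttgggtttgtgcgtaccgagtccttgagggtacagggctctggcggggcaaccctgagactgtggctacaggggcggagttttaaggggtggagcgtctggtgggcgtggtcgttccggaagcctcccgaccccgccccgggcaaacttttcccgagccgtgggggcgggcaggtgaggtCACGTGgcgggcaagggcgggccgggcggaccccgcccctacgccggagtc
Slc15a2: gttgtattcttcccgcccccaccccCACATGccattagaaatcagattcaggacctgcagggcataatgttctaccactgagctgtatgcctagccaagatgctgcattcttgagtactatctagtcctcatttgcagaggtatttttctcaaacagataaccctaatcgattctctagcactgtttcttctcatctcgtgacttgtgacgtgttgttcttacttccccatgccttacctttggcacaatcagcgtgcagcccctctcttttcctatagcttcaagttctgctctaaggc
The Slc20a1 window is chr2:129198523-129198822 on the plus strand, with the E-box starting at -175 and -22 from the annotated start. The Slc35a5 window is chr16:45158624-45158923 on the minus strand, with the E-box at -90 and -67. Slc33a1, at chr3:63964684-63964983 on the minus strand, has it at -125, and Slc12a7, at chr13:73763410-73763709 on the plus strand, at -1. The Slc15a2 window is chr16:36784913-36785212 on the minus strand, with CATGTG at -225. Slc20a1 and Slc12a7 have another window each that is not printed, from another annotated start.

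Other motifs were counted in the same windows on both strands. CATGTG stood in windows of 9.09% of the solute carrier genes, 10.7% of tested genes and 15.9% of all genes. Any E-box, CANNTG, which includes both of these, stood in 73.6%, 67.6% and 75% in the same order. TGATGNAAN, the element bound by the amino acid response factor ATF4 with a C/EBP partner, stood in 3.31%, 2.8% and 4.5%. Such matches describe letters in a window and are not evidence of binding.

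Column totals ran from 34644862 to 35806402 counts. Usf3 itself had 2532, 2360 and 2348 counts in the KO-labelled libraries, against 2499, 2527 and 2593 in the WT-labelled ones. The ranges overlapped, the log2 fold change was -0.076 ± 0.043 (SE; edgeR adjusted p = 0.261), and p was 0.3 in an exact permutation test (two-sided, on log2 CPM), with 0.1 the smallest that 3 against 3 allow. The sources used here do not give the floxed exons, so this count is no check of the labels, and the text speaks of KO-labelled and WT-labelled libraries. The 7 T cell markers were present, with a sum of 3320 to 3456 CPM in KO-labelled and 3504 to 3523 CPM in WT-labelled libraries, and Cd3e, Cd3d, Cd3g and Cd2 were called lower. The γδ receptor genes were not analysed here, and of the γδ lineage genes Sox13 and Blk, which summed to 4.50 to 4.78 CPM, against 6.68 to 8.42 CPM, Blk was called lower. Of other cell types, 6 B cell markers summed to 5.26 to 7.13 CPM in KO-labelled and 5.91 to 6.62 CPM in WT-labelled libraries, and 6 monocyte and macrophage markers to 6.03 to 6.78 CPM, against 7.16 to 9.74 CPM, nearly all of it Cd68, which was called lower, while Lyz2 and Csf1r lay below 1 CPM in every library. Dendritic markers (3) summed to 1.45 to 1.92 CPM, against 0.678 to 1.38 CPM, and neutrophil and erythroid markers (3 each) to at most 0.0559 and 0.462 CPM in KO-labelled and at most 0.113 and 0.281 CPM in WT-labelled libraries. The αβ T markers Cd4, Cd8a and Cd8b1 summed to 104 to 108 CPM, against 84.1 to 84.6 CPM, with Cd8a called higher and Cd4 under 1 CPM in every library. Natural killer markers (4) summed to 1143 to 1186 CPM, against 957 to 970 CPM. Eomes was called higher, with means of 501 CPM, against 306 CPM, Ncr1 was called lower, and Klrb1c and Nkg7 were not called. Stromal markers (3) summed to 42.8 to 46.7 CPM, against 51.3 to 62.1 CPM, nearly all of it Pecam1, which was called lower (-0.39, adjusted p = 4.09e-05). Platelet markers (4) summed to 1.26 to 1.51 CPM, against 0.859 to 0.904 CPM, and the 1 of them tested, Itga2b, was not called. The part of these shifts in the results was not tested, and fewer cells of a type cannot be told apart from less RNA per cell.

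Of the 163 solute carrier genes, 39 (23.9%) changed between the labels. 16 were higher in KO-labelled libraries, led by the peptide transporter gene Slc15a2 and the fatty acid transport gene Slc27a6. Both lay under 2 CPM in every WT-labelled library and reached the mean of 2 CPM only through the KO-labelled ones. The 23 lower genes included the zinc exporter gene Slc30a4, the choline transporter-like gene Slc44a2 and the phosphate importer gene Slc20a1. Most changes were small. Only Slc15a2 passed a fold of 2, and 7 of the 39 passed a fold of 1.5, each of them at a mean under 20 CPM. These were 17.9% of the 39, against 13.2% of all called genes with a mean of at least 2 CPM. Among them Slc4a10, Slc4a4 and Slc25a27, like Slc15a2 and Slc27a6, averaged under 2 CPM under a single label and met the cut through the other. The summed level of all 163 genes was 9165 ± 27.96 CPM in KO-labelled and 9172 ± 6.50 CPM in WT-labelled libraries (SD, n = 3 each), and 0.914% to 0.919% of the counts of a library.

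All 163 genes were among the 12810 tested. A gene was called where the quasi-likelihood test of edgeR gave an adjusted p (Benjamini-Hochberg, all tested genes) under 0.05. Of all tested genes 17.3% were called, 7.23% higher and 10.1% lower. Since the solute carrier genes were selected on level, tested genes with a mean of at least 2 CPM are the nearer background, and of these 20.3% were called, 8.33% higher and 12% lower. The shares of the solute carrier genes, 9.82% higher and 14.1% lower, lay somewhat above these, and this difference was not tested. In 72 of the 163 genes (44.2%) the libraries of the labels did not overlap, against 36.6% of tested genes at 2 CPM or more, and the 39 called genes are all among the 72. The median log2 fold change was -0.011 over the 163 genes and 0.0035 over tested genes at 2 CPM or more, and the medians of its size were 0.10 and 0.080. Called genes had a median size of 0.25 among the solute carriers and of 0.23 among tested genes at that level.

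**Figure D1:**
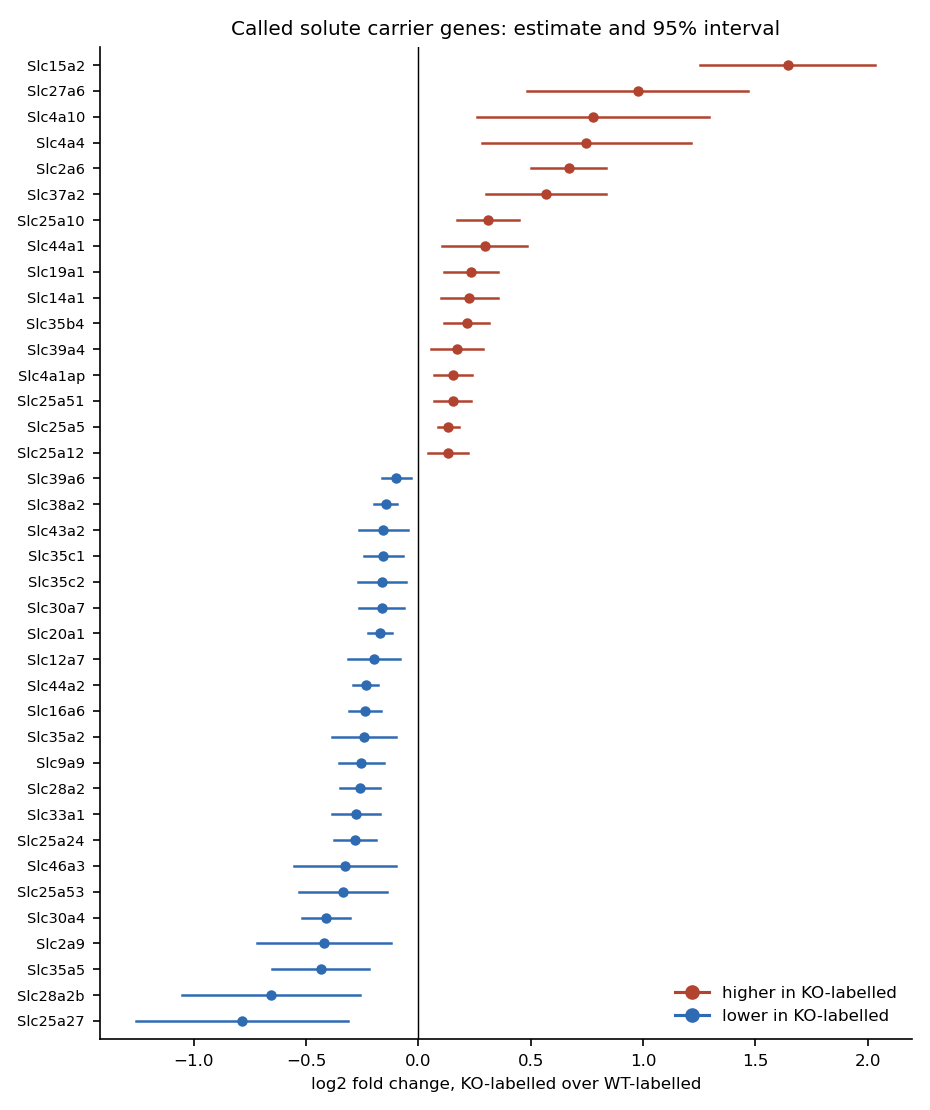
Log2 fold change of 38 of the 39 called solute carrier genes, KO-labelled over WT-labelled libraries (x axis), with points for the estimate and lines for the 95% interval of the edgeR fit. The estimates run from 1.64 for Slc15a2 at the top to -0.78 for Slc25a27 at the bottom, and no line crosses 0.

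Leaving out a library cost many of the calls. With each of the 6 libraries left out in turn 18 of the 39 genes kept the call every time, 7 of them higher and 11 lower, and 21 lost it at least once. The lower genes numbered 15 without KO replicate 1 and 14 without WT replicate 2, against 23 with all libraries. Among all tested genes the lower ones fell as well, to 1014 and 996 in the same order, against 1293. No called gene changed sign with any library left out. In a test against a fold of 1.2, in place of no change, 4 were called, Slc15a2, Slc27a6 and Slc2a6 as higher and Slc30a4 as lower.

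**Figure D2:**
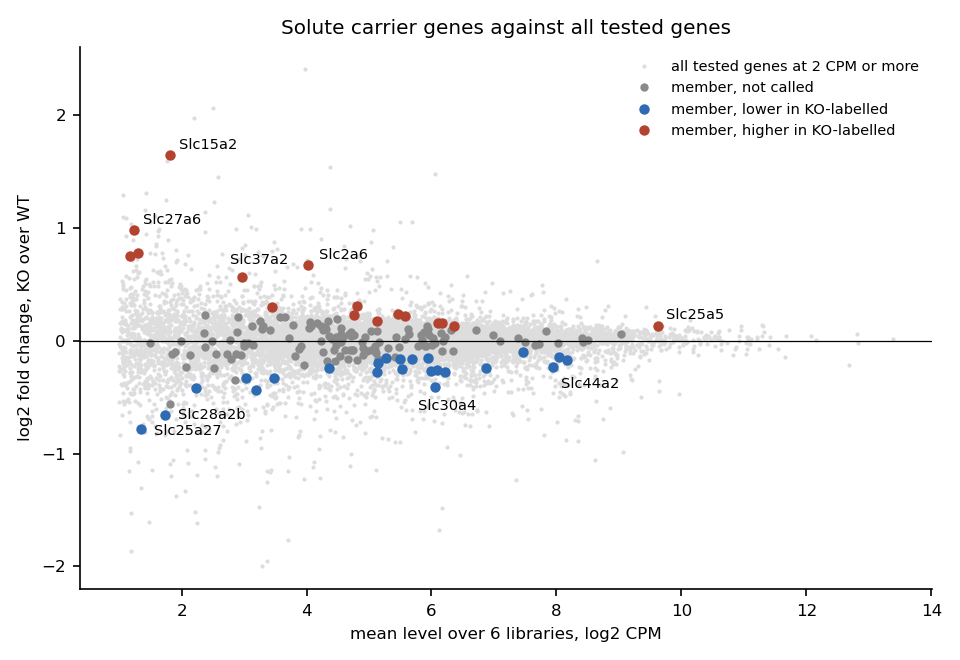
Mean level of each gene over the 6 libraries in log2 CPM (x axis) against its log2 fold change, KO-labelled over WT-labelled (y axis), for solute carrier genes (large points, coloured where called) and all tested genes at 2 CPM or more (small grey points, 3 of which lie outside the axis). The 7 genes past a fold of 1.5 stand at the low end of the level, and Slc25a5, at 792 CPM, is the most abundant called gene.

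Levels spanned a wide range. The mean ran from 2.25 to 792 CPM with a median of 26.2 CPM, and per length from 0.211 to 611 FPKM with a median of 5.54. By FPKM, the unit in which genes can be compared, the first were Slc25a5 with 611, the phosphate carrier gene Slc25a3 with 306 and Slc25a4 with 171, which are mitochondrial, followed by the amino acid transporter genes Slc7a5 with 97.9 and Slc1a5 with 94.1. The next were Slc44a2 with 63.5, the zinc transporter gene Slc39a7 with 57.4, the amino acid transporter gene Slc38a2 with 56.8 and Slc35b1, which carries ATP into the endoplasmic reticulum, with 54.9. Slc20a1 with 46.2, the zinc importer gene Slc39a6 with 45.5 and Slc35a4 with 43.1 completed the first 12. Just above the level of 2 CPM stood Slc25a27, Slc4a10, Slc27a6 and Slc4a4 with means of 2.56, 2.46, 2.37 and 2.25 CPM, and just below it Slc29a2, Slc9a2, Slc36a3os and Slc49a4 with 2.00, 2.00, 1.98 and 1.83 CPM.

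**Figure D3:**
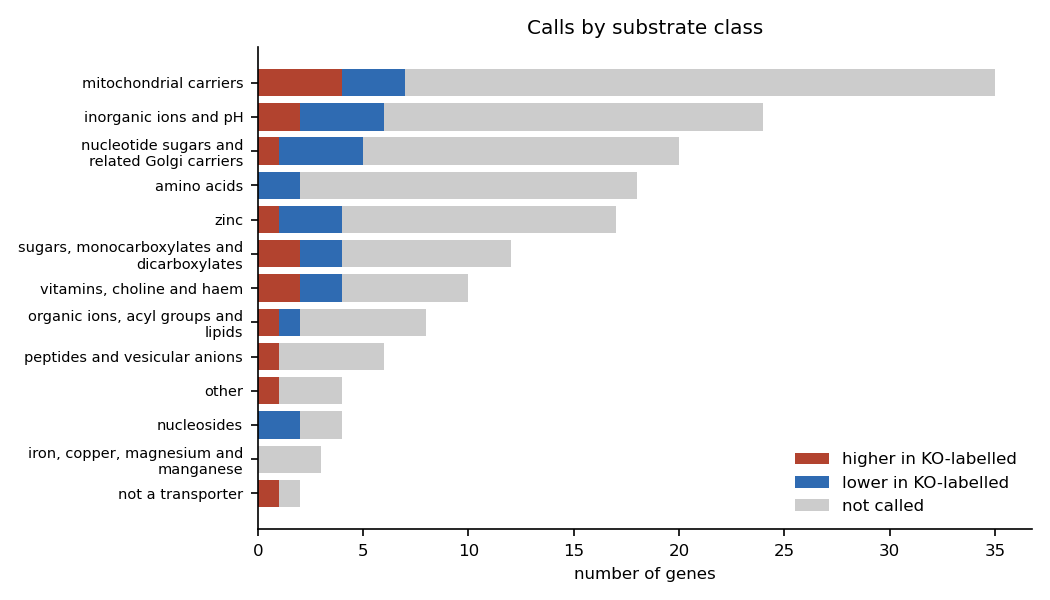
Number of solute carrier genes in each substrate class (x axis), split into genes called higher in KO-labelled libraries (red), called lower (blue) and not called (grey). Mitochondrial carriers are the largest class, with 35 genes, of which 4 were higher and 3 lower.

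Peptide transporters held the largest change. Slc15a2 encodes PEPT2, which brings dipeptides and tripeptides into cells with protons. It had 6.15, 4.83 and 5.08 CPM in KO-labelled libraries, against 1.88, 1.55 and 1.67 CPM in WT-labelled ones. The lowest KO-labelled library stood well above the highest WT-labelled one, and the mean reached 2 CPM only through the KO-labelled libraries. The ratio of the means was 3.15 and the log2 fold change 1.64 ± 0.19 (SE; adjusted p = 6.62e-07), and the call held in every other setting tried. Of the 6 genes for peptides and vesicular anions it was the only one called. The related Slc15a1 had 8.005 ± 0.258 CPM, against 6.89 ± 0.182 CPM (SD, n = 3 each; adjusted p = 0.234), and Slc15a3 and Slc15a4, which act on the endolysosomal membrane, differed by -0.02 and -0.01 with adjusted p of 0.962 and 0.924. Slc17a9, the vesicular nucleotide transporter gene, was at -0.18 (adjusted p = 0.0775).

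Genes for sugars, monocarboxylates and dicarboxylates had 2 of 12 higher and 2 lower. Slc2a6 encodes GLUT6, a hexose transporter of lysosomes. Its level was 21.2, 18.4 and 20.7 CPM in KO-labelled libraries, against 12.4, 11.97 and 13.4 CPM in WT-labelled ones, with a wide gap between the labels. The log2 fold change was 0.67 ± 0.08 (SE; adjusted p = 1.42e-06), and the call held in every other setting tried. Slc37a2, whose product exchanges sugar phosphates for phosphate in the endoplasmic reticulum, had 9.41, 10.8 and 7.91 CPM, against 6.49, 6.93 and 5.43 CPM, and changed by 0.57 ± 0.13 (adjusted p = 0.00285). KO replicate 3 was its lowest KO-labelled library and still above all WT-labelled ones. The other 3 genes of the Slc37 family were not called, at -0.10, -0.08 and 0.07 for Slc37a1, Slc37a4 and Slc37a3.

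The lower genes of this class were Slc16a6 and Slc2a9. Slc16a6 encodes MCT7, a monocarboxylate transporter that exports ketone bodies from hepatocytes in zebrafish, and had 110, 108 and 106 CPM in KO-labelled libraries, against 126, 130 and 124 CPM in WT-labelled ones. The labels were apart by more than their own spread, and the log2 fold change was -0.24 ± 0.03 (SE; adjusted p = 1.71e-05). Of the 50-base stretches of the Slc16a6 transcript 24.2% occur on the other strand in other genes of GENCODE M21, most often Amz2. Amz2 was at -0.13 (adjusted p = 0.309). Slc2a9, which carries urate, had 4.29, 3.97 and 3.87 CPM, against 5.42, 5.44 and 5.26 CPM (log2 fold change -0.42, adjusted p = 0.0473). Its libraries did not overlap, yet the call was lost by DESeq2 and limma-voom, with upper-quartile or total-count scaling, with other filters and without any 1 of the 6 libraries, with adjusted p up to 0.117 in the last case. The most abundant genes of the class that were not called, by FPKM, were Slc50a1, a SWEET sugar transporter gene, at 0.04 and the glucose-6-phosphate transporter gene Slc37a4. Of the 12 genes on a list of transporter chaperones, which has a median of -0.060 against 0.0014 over all tested genes, 3 were lower. Over all tested genes 10.1% were lower. Emb and Bsg, the chaperones of monocarboxylate transporters, changed by -0.39 and -0.09, with Emb at 303 ± 6.49 CPM, against 395 ± 11.5 CPM (SD, n = 3 each), and Unc93b1, which escorts Toll-like receptors, by -0.49. Nptn, of the same immunoglobulin family as Bsg and Emb, was higher by 0.09.

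Mitochondrial carriers, here all genes of the set named Slc25, were the largest class, with 4 of 35 genes higher and 3 lower. Their summed level was 2659 ± 14.99 CPM in KO-labelled and 2530 ± 9.73 CPM in WT-labelled libraries (SD, n = 3 each), a difference of 5.11%. Much of it lay in Slc25a5, the ADP/ATP carrier gene Ant2, without which the difference was 2.85%, and without Slc25a3 and Slc25a4 as well it was 1.22%. Slc25a5 had 846, 831 and 815 CPM in KO-labelled libraries, against 744, 754 and 758 CPM in WT-labelled ones. These ranges did not overlap, and the log2 fold change was 0.13 ± 0.02 (SE; adjusted p = 9.04e-05). Of the 50-base stretches of its transcript 46.6% also occur in 9 other genes of GENCODE M21, so its count may be split or shared with them. Slc25a4, the ADP/ATP carrier gene Ant1, was also above in all KO-labelled libraries, with 241, 234 and 230 CPM, against 214, 228 and 219 CPM. Its change of 0.08 did not pass (adjusted p = 0.0654), but it passed with total-count scaling, with upper-quartile scaling, without KO replicate 3 and without WT replicate 2. Slc25a3 had 537, 531 and 545 CPM, against 519, 504 and 520 CPM, which did not pass either (0.05, adjusted p = 0.115).

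The other higher carriers were Slc25a10, Slc25a51 and Slc25a12. Slc25a10, the dicarboxylate carrier gene, had 30.8, 32.8 and 29.2 CPM in KO-labelled libraries, against 24.9, 22.9 and 26.5 CPM in WT-labelled ones (0.31 ± 0.07, SE; adjusted p = 0.00164). Slc25a51, which brings NAD+ into mitochondria, had 74.4, 75.3 and 77.8 CPM, against 67.5, 67.1 and 68.6 CPM (0.15, adjusted p = 0.00863). Slc25a12, an aspartate/glutamate carrier gene, had 83.5, 86.7 and 89.5 CPM, against 81.8, 74.1 and 79.6 CPM (0.13, adjusted p = 0.0373). Of the 50-base stretches of the Slc25a10 transcript 9.07% occur on the other strand in other genes, most often Gm11788. None of the 3 overlapped between labels, but the margin of Slc25a12 was narrow and its call was lost without KO replicate 2 or 3 or WT replicate 2 or 3, with adjusted p up to 0.212.

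Slc25a24, Slc25a53 and Slc25a27 were lower. Slc25a24, which exchanges ATP-magnesium for phosphate, had 67.2, 70.6 and 63.2 CPM in KO-labelled libraries, against 78.8, 83.0 and 80.8 CPM in WT-labelled ones. The labels did not overlap, and the change was -0.28 ± 0.04 (SE; adjusted p = 5.91e-05). Slc25a27 (UCP4) was the lowest gene of all by FPKM, and its 72, 57 and 70 counts, against 139, 84 and 120 counts, gave the lowest log2 fold change, -0.78 ± 0.23 (adjusted p = 0.0179). Slc25a53 had 9.58, 9.75 and 10.2 CPM, against 13.5, 11.3 and 12.2 CPM (-0.33, adjusted p = 0.0154). Both were below in every KO-labelled library, with WT replicate 2 the nearest. The Slc25a27 call was lost without WT replicate 1 or 3 (adjusted p up to 0.130), that of Slc25a53 without KO replicate 1 or WT replicate 1 (adjusted p up to 0.111), and 5 carriers were called lower without KO replicate 2. A list of mitochondrial and vesicular carriers outside the Slc name had 1 of 23 higher and 1 lower, with a median of 0.017. Its higher gene was Ucp2, a member of the SLC25 family under another name, with 482, 471 and 493 CPM, against 397, 396 and 396 CPM (0.27 ± 0.02, adjusted p = 9.49e-09), and its lower gene was the lysolipid transporter gene Mfsd2a (-0.48). Of 8 genes of the mitochondrial calcium uniporter, 0 were called by edgeR, DESeq2 or limma-voom, and 1 had an unadjusted p under 0.05. The smallest p were those of Letm1 and Micu3, with adjusted p of 0.0758 and 0.220.

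**Figure D4:**
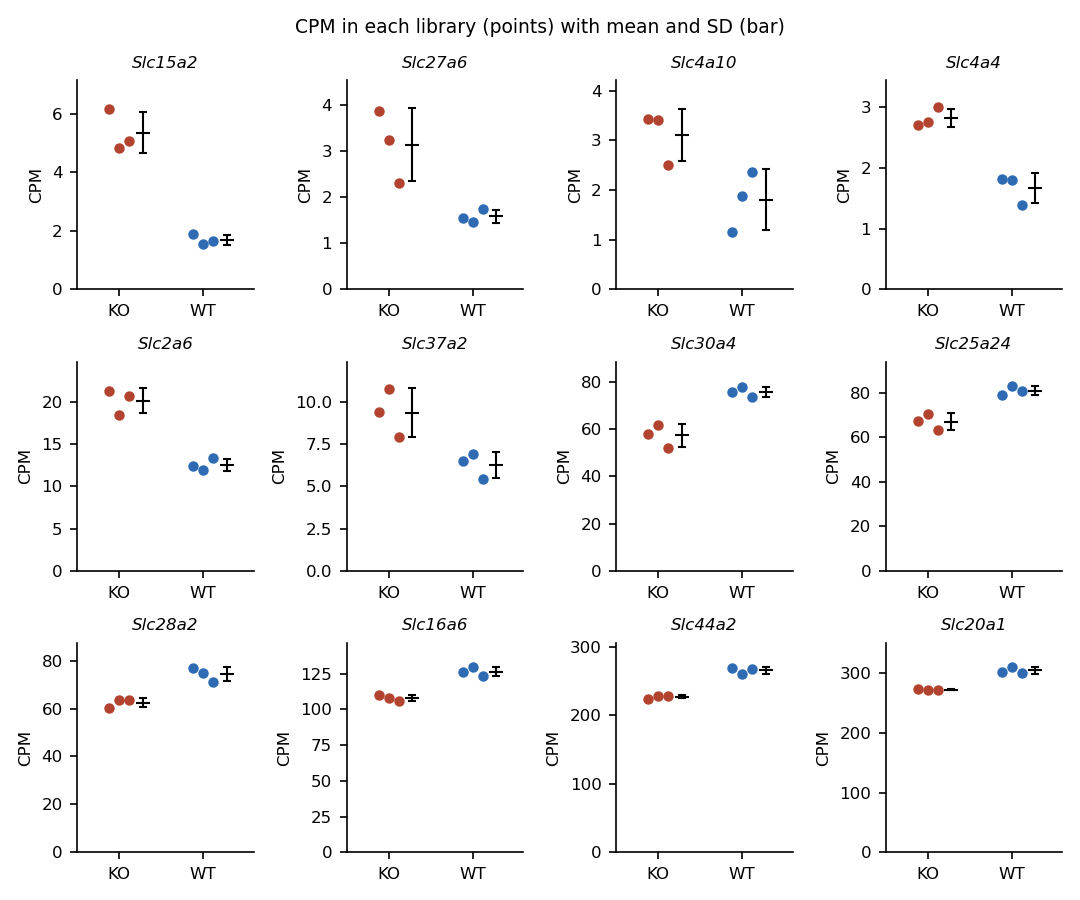
CPM of 12 called solute carrier genes in each library (points), with KO-labelled libraries at the left and WT-labelled libraries at the right of each panel, and the mean with its SD as a bar (n = 3 each). The axes start at 0, and in every panel the labels do not overlap. The first 6 panels are the genes with the highest log2 fold change, and the last 6 are lower genes with a mean of 50 CPM or more.

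Genes for inorganic ions and pH had 2 of 24 higher and 4 lower. The 2 higher genes, Slc4a4 and Slc4a10, encode sodium bicarbonate cotransporters and were near the lowest level of the set. Slc4a4 had 2.72, 2.76 and 3.00 CPM in KO-labelled libraries, against 1.83, 1.80 and 1.38 CPM in WT-labelled ones (0.75 ± 0.22, SE; adjusted p = 0.0227). Slc4a10 had 3.43, 3.41 and 2.51 CPM, against 1.15, 1.89 and 2.37 CPM (0.78 ± 0.25, adjusted p = 0.0333). KO replicate 3 and WT replicate 3 nearly met in Slc4a10, while Slc4a4 left a clear gap. The Slc4a10 call was lost without KO replicate 1 or 2 or WT replicate 1 or 2 (adjusted p up to 0.181), and that of Slc4a4 without KO replicate 1 or 3 or WT replicate 3 (adjusted p up to 0.106). The more abundant members of the family, the anion exchanger gene Slc4a2 and the bicarbonate cotransporter gene Slc4a7, were at 0.05 and -0.11 (adjusted p of 0.477 and 0.214).

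The lower ion transporter genes lay at higher levels, and the class summed to 829 ± 6.48 CPM in KO-labelled and 872 ± 5.48 CPM in WT-labelled libraries (SD, n = 3 each). Slc20a1, the sodium-phosphate importer PiT-1, whose window was shown with a pair of E-boxes, had 274, 273 and 272 CPM in KO-labelled libraries, against 303, 311 and 301 CPM in WT-labelled ones. The KO-labelled libraries were nearly equal and all below the WT-labelled ones, with a log2 fold change of -0.17 ± 0.03 (SE; adjusted p = 2.98e-05). Of the 50-base stretches of its transcript 12.3% occur on the other strand in other genes, most often 9830144P21Rik. The related Slc20a2 was at 0.03 (adjusted p = 0.810). Slc12a7 encodes the potassium-chloride cotransporter KCC4 and had 32.5, 34.7 and 31.5 CPM, against 38.4, 38.1 and 36.03 CPM (-0.20, adjusted p = 0.0142), and lost the call without KO replicate 1 or 3 or WT replicate 1 or 2 (adjusted p up to 0.0733). It was below in all KO-labelled libraries. Slc12a4 (KCC1) and the sodium-potassium-chloride importer gene Slc12a2 (NKCC1) did not pass, at 0.03 and 0.17. Slc9a9, an endosomal sodium/proton exchanger gene, had 42.7, 39.9 and 43.6 CPM, against 49.9, 50.04 and 49.5 CPM (-0.25 ± 0.05, adjusted p = 0.000475), while the other 5 Slc9 genes were not called.

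Partners of these transporters were read from the same test, in which 7.23% of all tested genes were higher and 10.1% lower. Of 5 tested sodium pump genes, Atp1b1, a β subunit, and Fxyd5, a regulatory subunit, were lower, at -0.55 and -0.24 (adjusted p of 0.0397 and 1.76e-06). Fxyd5 had 340 ± 18.1 CPM in KO-labelled libraries, against 400 ± 3.65 CPM in WT-labelled ones (SD, n = 3 each). Of 7 genes of the WNK pathway, the kinase cascade that sets the activity of Slc12 transporters, only Wnk1 was called, with 654 ± 14.1 CPM, against 705 ± 4.11 CPM (-0.12, adjusted p = 0.000566). The median log2 fold changes of these lists were -0.24 and 0.058.

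Zinc transporter genes had 3 of 17 lower and 1 higher. Slc30a4 encodes ZnT4, which loads zinc into endosomes and vesicles, and had 58.0, 62.0 and 52.04 CPM in KO-labelled libraries, against 75.8, 77.8 and 73.7 CPM in WT-labelled ones. The gap between the labels was wide, the log2 fold change was -0.41 ± 0.05 (SE; adjusted p = 2.51e-06), and the call held in every other setting tried. The other lower exporter gene, Slc30a7 (ZnT7, of the Golgi), had 49.8, 49.7 and 47.6 CPM, against 51.4, 55.0 and 57.2 CPM (-0.16, adjusted p = 0.0212). Its call was lost without KO replicate 1 or 3 or WT replicate 2 or 3 (adjusted p up to 0.153). Of the 50-base stretches of its transcript 19% occur on the other strand in other genes, most often Gm6649. The 6 exporter genes summed to 273 ± 7.87 CPM, against 302 ± 6.10 CPM (SD, n = 3 each), a difference of -9.77%. Much of it lay in Slc30a4, which averaged 57.3 CPM, against 75.8 CPM, and 4 of the 6 were not called. The sum of the 11 importer genes was 617 ± 6.10 CPM, against 617 ± 11.9 CPM.

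Among the importers Slc39a6 (ZIP6) was lower and Slc39a4 (ZIP4) higher. Slc39a6 had 175, 170 and 168 CPM in KO-labelled libraries, against 177, 182 and 188 CPM in WT-labelled ones, a narrow separation (-0.10, adjusted p = 0.0314). Slc39a4 had 37.6, 34.7 and 38.6 CPM, against 31.8, 33.9 and 32.0 CPM (0.17, adjusted p = 0.0374). The Slc39a6 call was lost with upper-quartile or total-count scaling and without KO replicate 2 or WT replicate 2 or 3 (adjusted p up to 0.212), and that of Slc39a4 without KO replicate 1 or 3 or WT replicate 1 or 3 (adjusted p up to 0.142) and by DESeq2. Slc39a7 (ZIP7), which releases zinc from the endoplasmic reticulum, had 140, 138 and 135 CPM, against 134, 140 and 137 CPM, with overlapping ranges and a log2 fold change of -0.001 (adjusted p = 0.985), and 83.9% of its transcript is shared with Gm20427. Of 14 genes for the buffering of zinc and iron, with a median of -0.0082, the metallothionein gene Mt2 was lower with 59.3 ± 4.53 CPM, against 67.5 ± 2.17 CPM (SD, n = 3 each; -0.20, adjusted p = 0.00673). The ferritin light chain gene Ftl1 and the iron chaperone gene Pcbp2 were higher, by 0.19 and 0.07. The 3 genes for iron, copper and magnesium, Slc11a2, Slc31a1 and Slc41a1, gave 0 calls by edgeR, DESeq2 or limma-voom and 0 unadjusted p under 0.05.

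Nucleotide sugar and related Golgi carriers had 4 of 20 genes lower and 1 higher. Slc35a5, an orphan member near the UDP-sugar carriers, had 8.09, 8.24 and 7.13 CPM in KO-labelled libraries, against 10.8, 9.82 and 10.9 CPM in WT-labelled ones. The labels did not overlap, with a log2 fold change of -0.43 ± 0.10 (SE; adjusted p = 0.00426). Its window, shown earlier, holds a pair of E-boxes. Slc35a2, the UDP-galactose carrier gene, had 18.5, 18.99 and 18.8 CPM, against 20.8, 22.6 and 22.9 CPM (-0.24, adjusted p = 0.0151). Slc35c1, the GDP-fucose carrier gene, and Slc35c2, which affects fucosylation of Notch, averaged 58.3 ± 0.373 and 42.9 ± 2.88 CPM in KO-labelled libraries, against 64.6 ± 1.74 and 47.7 ± 1.38 CPM in WT-labelled ones (SD, n = 3 each), with adjusted p of 0.0105 and 0.0346. None of these 4 overlapped between the labels.

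Slc35b4, which carries UDP-xylose and UDP-N-acetylglucosamine, was the higher gene of that class, with 52.1, 48.9 and 53.2 CPM in KO-labelled libraries, against 43.1, 45.1 and 43.7 CPM in WT-labelled ones (0.21 ± 0.05, SE; adjusted p = 0.0024). All KO-labelled libraries were above. Slc35b1 had 80.4, 72.6 and 74.0 CPM, against 74.0, 70.9 and 75.3 CPM, and Slc35a4 127, 128 and 131 CPM, against 128, 122 and 121 CPM, and neither passed (adjusted p of 0.668 and 0.413). The sum of the 20 genes was 855 ± 5.45 CPM, against 858 ± 5.05 CPM (SD, n = 3 each). The Slc35a2 call was lost without KO replicate 1 or WT replicate 2 or 3 (adjusted p up to 0.0816), that of Slc35c1 without WT replicate 2 (adjusted p = 0.0662), and that of Slc35c2 by DESeq2 and without any library but KO replicate 3 (adjusted p up to 0.159).

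Amino acid transporter genes had 2 of 18 lower and 0 higher. Slc7a5, Slc1a5, Slc38a1 and Slc3a2 were not called. Slc7a5, the light chain of the large neutral amino acid transporter LAT1, had 351, 339 and 343 CPM in KO-labelled libraries, against 348, 345 and 338 CPM in WT-labelled ones (-0.01, adjusted p = 0.880). Slc1a5, the glutamine and neutral amino acid exchanger ASCT2, had 255, 256 and 268 CPM, against 260, 261 and 265 CPM (-0.02, adjusted p = 0.628). Both ranges overlapped. Their 95% intervals ran from -0.06 to 0.04 and from -0.08 to 0.03 on the log2 scale. Slc3a2, the heavy chain partner, was at 0.03 and the glutamine transporter gene Slc38a1 at 0.01, with adjusted p of 0.523 and 0.922. The count of 0 higher genes held in DESeq2 and limma-voom, and 1 gene with a positive change had an unadjusted p under 0.05. That count was 1 with upper-quartile or total-count scaling and without KO replicate 3.

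The lower amino acid transporter genes were Slc38a2 and Slc43a2. Slc38a2 encodes SNAT2, which takes up small neutral amino acids with sodium, and had 252, 254 and 250 CPM in KO-labelled libraries, against 277, 278 and 278 CPM in WT-labelled ones. Both labels were tight and apart, with a log2 fold change of -0.15 ± 0.03 (SE; adjusted p = 0.000198). Slc43a2 (LAT4) had 35.8, 37.5 and 36.9 CPM, against 41.4, 38.7 and 41.8 CPM (-0.16, adjusted p = 0.0416), and lost the call by DESeq2, with upper-quartile or total-count scaling and without KO replicate 1 or 3 or WT replicate 1 or 3 (adjusted p up to 0.170). Of the 50-base stretches of its transcript 6.64% occur on the other strand in other genes, most often Gm45606. SNAT2 is a known target of ATF4, which drives the response to amino acid shortage. Of 28 tested genes of that response, with a median of -0.020, 5 were lower and 0 higher by edgeR. Of all tested genes 10.1% were lower and 7.23% higher, and the difference was not tested. DESeq2 and limma-voom gave 4 lower and 0 higher. By edgeR 4 genes with a positive and 7 with a negative change had an unadjusted p under 0.05. The lower ones included the transcription factor genes Atf3 (-1.10, adjusted p = 2.00e-05) and Cebpg (-0.23, adjusted p = 0.0199). The others were the pseudokinase gene Trib3 (-0.22, adjusted p = 0.0468), the mTORC1 inhibitor gene Sesn2 (-0.24, adjusted p = 0.0127) and the translation repressor gene Eif4ebp1 (-0.23, adjusted p = 0.0304). Atf4 itself had 408 ± 12.01 CPM, against 403 ± 8.11 CPM (SD, n = 3 each; adjusted p = 0.904). Of 22 genes of lysosomal amino acid sensing, with a median of -0.0082, Lamtor2, a subunit of the Ragulator complex, was higher (0.24, adjusted p = 0.00238) and Sesn3, a relative of Sesn2, lower (-0.31, adjusted p = 1.71e-05).

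Both concentrative nucleoside transporter genes of the set were lower, and neither equilibrative one of the set was called. Slc29a2, just below the level cut, was above in all KO-labelled libraries but not called (0.40, adjusted p = 0.281). Slc28a2, the sodium-coupled importer of purine nucleosides and uridine CNT2, had 60.4, 63.6 and 63.4 CPM in KO-labelled libraries, against 76.8, 74.9 and 71.2 CPM in WT-labelled ones. The labels were apart, with a log2 fold change of -0.26 ± 0.04 (SE; adjusted p = 9.85e-05). Its close copy Slc28a2b had 2.72, 2.71 and 2.40 CPM, against 3.93, 4.93 and 3.39 CPM (-0.66, adjusted p = 0.0187), and lost the call without WT replicate 2 (adjusted p = 0.142). Of the 50-base stretches of the Slc28a2 transcript 39.6% also occur in Slc28a2b, annotated as Gm14085, so their counts cannot be fully told apart. Slc29a1, the equilibrative transporter ENT1, had 109 ± 2.41 CPM, against 101 ± 4.45 CPM (SD, n = 3 each; 0.09, adjusted p = 0.104), and Slc29a3, of lysosomes, was at -0.04 (adjusted p = 0.816). Of 15 nucleoside salvage genes, with a median of -0.0071, the cytosolic thymidine kinase gene Tk1 and the adenine phosphoribosyltransferase gene Aprt were higher, by 0.18 and 0.12. The mitochondrial thymidine kinase gene Tk2 and the uridine phosphorylase gene Upp1 were lower, by -0.44 and -0.95, with Upp1 at 6.59 ± 0.289 CPM, against 12.6 ± 1.06 CPM (SD, n = 3 each).

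Genes for vitamins, choline and haem had 2 of 10 lower and 2 higher. Slc44a2, a choline transporter-like gene, had 224, 229 and 228 CPM in KO-labelled libraries, against 268, 260 and 268 CPM in WT-labelled ones. The labels were far apart relative to their spread, and the log2 fold change was -0.23 ± 0.03 (SE; adjusted p = 7.65e-07). Its relative Slc44a1, a choline transporter of the plasma membrane and mitochondria, went the other way, with 12.6, 11.98 and 11.5 CPM, against 9.49, 9.74 and 10 CPM (0.30, adjusted p = 0.0262). Slc19a1, the reduced folate carrier, which in human cells also imports cyclic dinucleotides, had 49.6, 43.9 and 49.6 CPM, against 43.4, 39.96 and 37.4 CPM (0.24 ± 0.06, adjusted p = 0.00586). Its libraries were separated by little, KO replicate 2 and WT replicate 1 being nearly equal. Slc46a3, a lysosomal transporter gene, had 7.44, 7.18 and 7.16 CPM, against 8.62, 9.94 and 8.59 CPM (-0.33, adjusted p = 0.0403). The Slc44a1 call was lost without KO replicate 1 or WT replicate 1 or 2 (adjusted p up to 0.109), that of Slc19a1 without WT replicate 3 (adjusted p = 0.0549), and that of Slc46a3 by DESeq2 and limma-voom and without any 1 of the 6 libraries (adjusted p up to 0.197). The haem transporter gene Slc48a1 was at 0.08 (adjusted p = 0.294).

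The remaining classes held 14 genes, of which 3 were higher and 1 lower. Slc27a6, a fatty acid transport protein gene, had 3.89, 3.24 and 2.31 CPM in KO-labelled libraries, against 1.54, 1.46 and 1.75 CPM in WT-labelled ones. The labels did not overlap, though the KO-labelled libraries were spread (0.98 ± 0.24, SE; adjusted p = 0.00491), and the call was lost without KO replicate 1 (adjusted p = 0.0560). Slc27a1 and Slc27a4, the other genes of the family, were at 0.23 and 0.10 (adjusted p of 0.405 and 0.343). Slc33a1, which brings acetyl-CoA into the endoplasmic reticulum and whose window was shown with an E-box, had 31.9, 31.9 and 31.03 CPM, against 37.99, 38.1 and 38.1 CPM. The WT-labelled libraries were nearly identical and all above, with a log2 fold change of -0.28 ± 0.05 (adjusted p = 0.000399). Of the 50-base stretches of the Slc33a1 transcript 35.1% occur on the other strand in other genes, most often Gm26850. Slc14a1, the urea transporter UT-B, had 29.9, 29.7 and 28.3 CPM, against 25.7, 25.1 and 23.7 CPM (0.23, adjusted p = 0.00994), and lost the call without WT replicate 3 (adjusted p = 0.0550). Slc4a1ap, which the symbol rule includes though it encodes kanadaptin, an adaptor and not a transporter, had 71.7, 73.6 and 73.9 CPM, against 63.5, 65.4 and 66.7 CPM (0.15, adjusted p = 0.00989), and lost the call without WT replicate 1 (adjusted p = 0.0619). Slc7a6os, an opposite-strand gene that is not a transporter either, was at -0.05 (adjusted p = 0.593).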

How the data were processed

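The VAHTS Universal V6 kit was used on TRIzol RNA, per the labels' protocols, and the submitters' processing notes name fastp, HISAT2, HTSeq and the build GRCm39. Their versions and roles, the gene annotation and any strand setting were not given in the sources used here, so reads of a gene and of an overlapping antisense gene cannot be told apart. The deposited counts are whole numbers per gene symbol in 6 columns, 1 per library, not normalized. The deposited FPKM equal counts per fixed gene length and column total, and served to compare levels between genes.

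Counts were fitted with edgeR 4.0.16 in R 4.3.3 over all genes kept by filterByExpr (12810), with TMM scaling (factors 0.994 to 1.01), glmQLFit and glmQLFTest on the label, and adjusted p after Benjamini and Hochberg over these genes. The common biological coefficient of variation was 4.16%. Log2 fold changes, SEs and 95% intervals are from this fit, and printed CPM use column totals. No pair of libraries agreed within sampling noise. The chi-square of counts per degree of freedom was 3.60 to 7.19 among KO, 3.26 to 3.30 among WT and 15.1 to 17.3 between labels. Each library counted as a sample, though this spread cannot tell separate animals from libraries of a pool. Alternatives were other scalings, filters and thresholds, DESeq2 1.42.0, limma 3.58.1 (voom, and log2 FPKM with a pseudocount of 0.1 or 1), the replicate number as a block and each library left out. Pairing was checked by correlating the deviations of same-numbered libraries from their group means. The test script was tested on simulated data. Sequence sharing, on the same or the other strand, used 50-base stretches of GENCODE M21 transcripts (GRCm38) for 159 genes. It compared sequences and not positions. Promoter windows are from RefSeq.

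The rule for values in the text took the 12 highest and 12 lowest called genes by log2 fold change and the 12 with the highest FPKM in every library, the other called genes, up to 2 genes not called per class, and the called genes of each partner list. Genes beyond it were chosen after their values were seen: Atf4, Slc7a6os and genes named as family relatives of called ones. Some genes that the rule names are counted but not reported here by name. The genes, classes and lists were chosen with earlier results of these data known.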

Additional observations from a re-analysis of the deposited data

How the results depend on the processing

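With RLE scaling 16 solute carrier genes were higher in KO-labelled libraries and 23 lower, as reported, with upper-quartile and total-count scaling 19 and 20, with DESeq2 15 and 19, and with limma-voom 16 and 21. On log2 FPKM the counts were 9 and 13 with a pseudocount of 0.1 and 9 and 15 with 1. Against a fold of 1.2 they were 3 and 1, and over all tested genes 147 and 300. At an adjusted p under 0.01 the lower solute carrier genes numbered 11 and all higher tested genes 520. With 1 library left out, 11 to 15 were higher and 14 to 24 lower, and over all tested genes 666 to 1000 and 994 to 1330. The causes were not tested, except that a fold test and a stricter threshold call fewer genes by construction. Of the 39 called genes 18 kept the call in every alternative but the fold test, and none changed sign. The median log2 fold change of the 163 genes, -0.0106 as reported, was 0.000186 with upper-quartile scaling, -0.000882 with total-count scaling, and -0.00168 and 0.000638 on log2 FPKM with pseudocounts of 0.1 and 1. With 1 library left out it ran from -0.0155 to 0.0103, so its sign is not settled. The replicate numbers did not pair the libraries: same-numbered libraries correlated at 0.054, -0.028 and -0.045 in their deviations, and of the 3 KO-labelled libraries 1 correlated best with its own number. With the replicate block 12 were higher and 18 lower. Below 10 CPM the fold changes have wide intervals.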
